A study of Mus musculus with 6 samples.

Results

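The 10 genes described here, *Ccna2*, *Ccnb1*, *Ccnb2*, *Cdk1*, *Cdc20*, *Plk1*, *Aurka*, *Ube2c*, *Foxm1* and *Mybl2*, encode regulators of entry into and exit from mitosis. They were chosen by gene name, without a threshold on any measured value but with earlier results of these data known. Their source was a table of raw read counts with 55367 gene names. All 10 were among the 14916 genes with enough counts to be tested. The RNA came from primary mouse keratinocytes, the main cell type of the epidermis, taken from the skin of newborn pups of a mixed C57BL/6 and 129/Sv background. Every culture carried both copies of *Ppp1r13l*, the gene of iASPP, with loxP sites (Ppp1r13l flox/flox) and a tamoxifen-inducible Cre recombinase (Cre+ERT) that is expressed from the *Gt(ROSA)26Sor* locus and so is not restricted to keratinocytes. Each of 3 isolations, called batches in the labels, was divided between the conditions, which made 6 libraries. In each, 1 culture was given tamoxifen 24 h after plating in low-calcium medium (iASPP KO). The other culture was given the same medium without tamoxifen (iASPP WT). The p-values between conditions set each change against the spread between these 3 pairs, with a variance estimate drawn in large part from other genes. No culture had tamoxifen without the floxed gene or Cre, so an effect of the drug and an effect of the deletion cannot be told apart.

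Mitosis starts when the kinase CDK1, bound to a cyclin B, becomes active; cyclin A2 acts before it, in S phase and G2, and the kinases PLK1 and Aurora A help switch CDK1 on and build the spindle. Mitosis ends when the anaphase-promoting complex (APC/C), a ubiquitin ligase activated by CDC20 and supplied with ubiquitin by the conjugating enzyme UBE2C, marks cyclin B and securin for destruction. The genes of these proteins are transcribed mainly in G2 and M, when B-MYB (*Mybl2*) and FOXM1 join the MuvB complex at promoters that often hold a cell cycle genes homology region (CHR) and CCAAT boxes. In the epidermis, dividing cells lie in the basal layer, and cells that differentiate leave the cycle.

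The promoters are shown because these 2 elements are the best known feature shared by genes of this class. RefSeq windows on the mouse build GRCm38.p6, from 250 bases before to 50 bases after the annotated start, matched 8 of the 10 genes, with none for *Ccna2* and *Foxm1*. Printed below, 5′ to 3′ on the gene's own strand, are the last 150 bases of 7 windows, which begin 100 bases before the start. Capitals mark a CHR (TTTGAA or TTCGAA) or a CCAAT box, read on either strand, so that TTCAAA and ATTGG are the same elements on the other strand. They lie at chr10:69352863-69353012 (minus strand, *Cdk1*), chr9:70421505-70421654 (minus, *Ccnb2*), chr4:118437294-118437443 (minus, *Cdc20*), chr7:122159335-122159484 (plus, *Plk1*), chr2:172370521-172370670 (minus, *Aurka*), chr2:164769829-164769978 (plus, *Ube2c*) and chr2:163054535-163054684 (plus, *Mybl2*).
Cdk1: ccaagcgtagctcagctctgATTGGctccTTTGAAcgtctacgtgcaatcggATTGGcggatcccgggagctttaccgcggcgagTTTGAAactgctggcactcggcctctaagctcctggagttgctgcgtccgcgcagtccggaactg
Ccnb2: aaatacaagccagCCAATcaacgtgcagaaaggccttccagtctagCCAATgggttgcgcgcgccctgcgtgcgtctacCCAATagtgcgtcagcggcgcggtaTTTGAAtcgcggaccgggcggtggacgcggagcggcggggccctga
Cdc20: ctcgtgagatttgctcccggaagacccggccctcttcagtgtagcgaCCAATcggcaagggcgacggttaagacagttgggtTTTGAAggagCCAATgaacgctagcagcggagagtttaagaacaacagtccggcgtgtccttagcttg
Plk1: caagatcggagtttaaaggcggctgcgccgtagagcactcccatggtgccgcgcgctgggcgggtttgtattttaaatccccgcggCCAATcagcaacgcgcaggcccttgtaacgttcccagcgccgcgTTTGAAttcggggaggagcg
Aurka: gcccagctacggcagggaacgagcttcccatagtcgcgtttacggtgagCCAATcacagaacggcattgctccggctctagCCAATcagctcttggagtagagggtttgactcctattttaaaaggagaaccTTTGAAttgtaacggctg
Ube2c: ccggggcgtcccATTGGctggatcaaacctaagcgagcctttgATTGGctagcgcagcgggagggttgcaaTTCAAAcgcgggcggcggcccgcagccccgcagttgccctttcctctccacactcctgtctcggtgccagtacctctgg
Mybl2: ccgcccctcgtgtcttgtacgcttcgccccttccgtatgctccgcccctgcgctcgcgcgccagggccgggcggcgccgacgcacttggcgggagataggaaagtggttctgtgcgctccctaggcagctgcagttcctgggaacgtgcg

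Over the whole 300-base windows, a CHR was found in 6 of the 8 genes, and in 19.2% of all 32851 RefSeq mouse promoter windows of that length. A CCAAT box was found in 7 of 8 genes, against 37.4% of all windows, and 2 or more CCAAT matches in 6 of 8, against 11.7%. Both elements were present in *Ccnb2*, *Cdk1*, *Cdc20*, *Plk1*, *Aurka* and *Ube2c*, that is in 6 of 8 genes against 7.52% of all windows. The CHR nearest the start began at 4 bases after it in *Ccnb2*, 15 before it in *Cdk1*, 18 before it in *Cdc20*, 30 after it in *Plk1*, 32 after it in *Aurka* and 29 before it in *Ube2c*. *Ccnb1* had CCAAT boxes at 99 and 67 bases before its start and no CHR, and *Mybl2* had neither element. Of the E2F octamers searched (TTTGGCGC, TTTCGCGC, TTTCCCGC or TTTGCCGC on either strand), a match occurred in *Cdk1* alone among the 8, against 2.26% of all windows. Other forms of an E2F site were not searched, so the lack of a match does not show that a promoter has no such site. The forkhead core TAAACA, read on both strands, occurred in *Ccnb1* alone, against 13.4%. In *Ube2c*, 1 CCAATTGG upstream reads as a CCAAT box on both strands, so 2 of its 6 matches overlap. These are matches of letters and not measured binding.

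**Figure D1:**
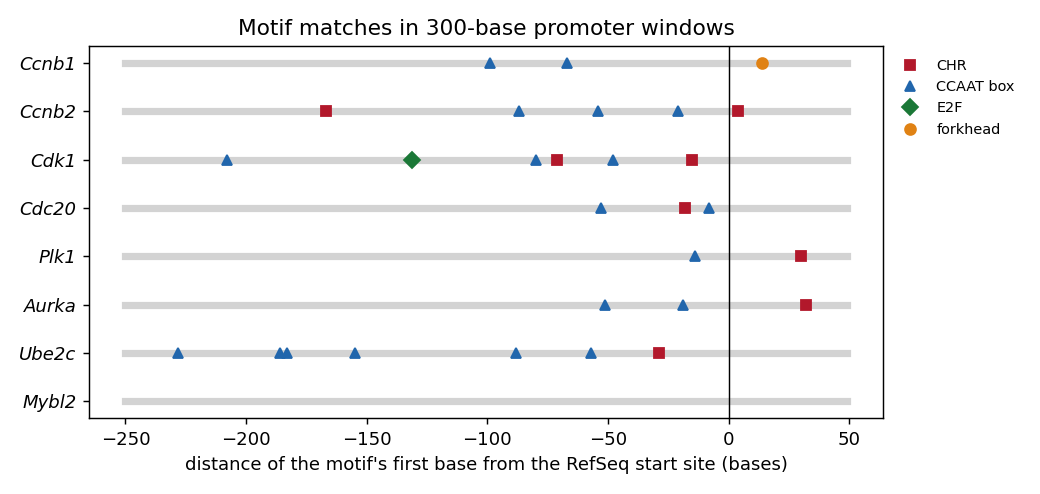
Motif matches in the RefSeq promoter windows of 8 genes; the x axis is the distance in bases of each match's first base from the annotated start (vertical line), and each grey bar is 1 window of 300 bases. Red squares (CHR) lie within 32 bases of the start in 6 genes, with a second match further upstream in *Ccnb2* and *Cdk1*. Blue triangles (CCAAT boxes) all lie upstream of the start. *Mybl2* has no match to the letters searched, which leave out other forms of an E2F site.

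The libraries held 20202517 to 25157117 counts. Levels are given as counts per 1000000 (CPM) after scaling of library sizes with TMM, in the order of batches 1, 2 and 3. In this scale 3 counts, the limit that a count of 0 allows, equal 0.123 to 0.14 CPM. The members' lowest count was 48, for *Plk1* in the iASPP KO culture of batch 1, with a 95% exact Poisson interval of 35.4 to 63.6 that covers counting error only. *Ppp1r13l* itself (chr7:19359749-19378533), the deleted gene, stood at 14.2, 17.7 and 5.9 CPM in iASPP KO and 32.6, 45.1 and 21.0 CPM in iASPP WT. Every iASPP KO library was below every iASPP WT library, and the log2 fold change was −1.45 ± 0.18 (SE; adjusted p = 0.003, the quasi-likelihood test of edgeR with Benjamini-Hochberg adjustment over all tested genes, as for every adjusted p here).

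Of the 10 mitotic regulators, 8 were lower and 0 were higher in iASPP KO at an adjusted p below 0.05, against 1.95% of all tested genes lower and 2.17% higher. At an unadjusted p below 0.05 in edgeR's quasi-likelihood test 9 were lower and 0 higher, against 8.09% and 8.66% of all tested genes. DESeq2 called 9 lower and 0 higher, against 2.94% and 3.61%. The median log2 fold change of the 10 genes was −1.23, compared with 0.01 over all tested genes. Because the genes were chosen with earlier results known, these comparisons are descriptive. The calls fell on the cyclins, CDK1, the mitotic kinases and the exit factors, whereas the transcription factors *Foxm1* and *Mybl2* did not pass. In 9 of the 10 genes the iASPP KO culture was below its own iASPP WT culture in each of the 3 batches, as was so for 19.7% of all tested genes. In none of the 10 did all iASPP KO libraries lie below all iASPP WT libraries, which held for 5.48% of all tested genes; in each of them the iASPP KO culture of batch 3 lay above at least 1 iASPP WT culture of another batch. The calls rest on the pairing of cultures within batches: with no replicate block in the fit, edgeR called 0 of the 10 genes and 0 of all genes, with 1 of the 10 at an unadjusted p below 0.05. Without batch 2, 5 of the 10 were called, the calls of *Ccnb1*, *Plk1* and *Ube2c* being lost. In bulk RNA, fewer cells in G2 or mitosis and less RNA of these genes per cell cannot be told apart.

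**Figure D2:**
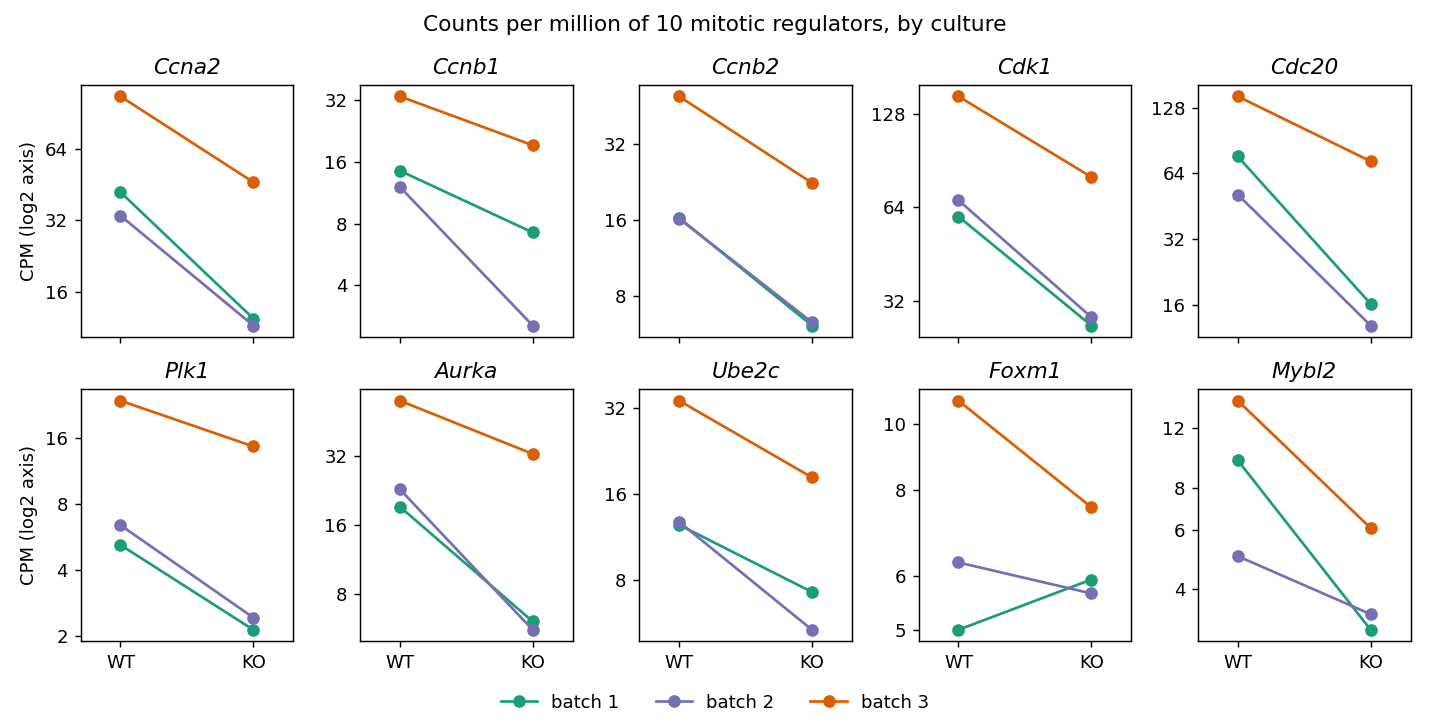
CPM of the 10 genes in iASPP WT and iASPP KO; each line joins the 2 cultures of 1 batch, and the log2 y axis has its own range in each panel. Lines fall from WT to KO in every panel except *Foxm1*, where batch 1 rises, and batch 3 (orange) has the highest WT and the highest KO value of all 10 genes.

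The first group is the CDK1 kinase with its cyclins. *Cdk1* (chr10:69335146-69352938) stood at 26.6, 28.3 and 80.2 CPM in iASPP KO and at 59.8, 67.5 and 146 CPM in iASPP WT. The iASPP KO culture was lower in each batch, by similar log2 amounts of −1.17, −1.25 and −0.87, although the iASPP KO culture of batch 3 lay above the iASPP WT cultures of batches 1 and 2. The fitted log2 fold change of −1.09 ± 0.13 (SE, n = 3 pairs; adjusted p = 0.0022, edgeR) had the smallest error of the 10. *Ccna2* (chr3:36564865-36572150), encoding cyclin A2, had 12.3, 11.5 and 46.4 CPM in iASPP KO and 42.1, 33.5 and 107 CPM in iASPP WT. Its iASPP KO cultures were again the lower of each pair, with log2 differences of −1.77, −1.54 and −1.20 and a fitted value of −1.5 ± 0.16 (adjusted p = 0.0012, edgeR).

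The mitotic cyclins B1 and B2 differed in how even their changes were. *Ccnb2* (chr9:70407692-70421547) measured 6.14, 6.32 and 22.4 CPM in iASPP KO and 16.3, 16.2 and 49.1 CPM in iASPP WT, so that batches 1 and 2 nearly coincided in both conditions. Its log2 differences were −1.40, −1.35 and −1.13, and the fit gave −1.29 ± 0.18 (adjusted p = 0.0043, edgeR). *Ccnb1* (chr13:100778650-100786570) measured 7.25, 2.55 and 19.3 CPM in iASPP KO and 14.5, 12.1 and 33.4 CPM in iASPP WT. One iASPP KO culture, that of batch 2, stood far below the others, and the log2 differences of −0.99, −2.21 and −0.79 were correspondingly uneven. The fitted value was −1.30 ± 0.28 (adjusted p = 0.03, edgeR), and without batch 2 it was −0.89 and no longer called (adjusted p = 0.11, edgeR). *Ccnb1* also has near-identical copies: 44.3% of the 42-base windows of its longest transcript, 42 bases being the read length, occur in transcripts of 6 other genes, among them *Ccnb1-ps*, so reads from these windows match more than 1 gene.

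The kinases that help start mitosis were both lower. *Aurka* (chr2:172356190-172370535), encoding Aurora A, had 6.09, 5.6 and 32.8 CPM in iASPP KO against 19.3, 23.0 and 56.0 CPM in iASPP WT. The iASPP KO culture held 31.6%, 24.3% and 58.5% of the CPM of its iASPP WT partner, and the fitted log2 fold change was −1.46 ± 0.24 (adjusted p = 0.0095, edgeR). *Plk1* (chr7:122159439-122169873), whose product acts from mitotic entry to the division of the cell, had 2.13, 2.42 and 14.6 CPM in iASPP KO against 5.19, 6.39 and 23.6 CPM in iASPP WT. It was low in batches 1 and 2 and several times higher in batch 3 in both conditions. Its fitted log2 fold change of −1.10 ± 0.26 passed narrowly (adjusted p = 0.045, edgeR), and the call was lost without batch 1 (−1.01, adjusted p = 0.13) or without batch 2 (−0.95, adjusted p = 0.2). Of its 42-base windows, 9.87% occur in the pseudogene *Plk-ps1*, and none of those of *Aurka* in another gene.

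Of the genes that serve mitotic exit, *Cdc20* (chr4:118432901-118437352) had the largest fitted change of the 10. It measured 16.2, 12.9 and 72.7 CPM in iASPP KO and 76.5, 51.2 and 144 CPM in iASPP WT. The iASPP KO cultures of batches 1 and 2 held 21.2% and 25.1% of their partners' CPM, and that of batch 3 held 50.6%. The fitted log2 fold change was −1.72 ± 0.22 (adjusted p = 0.0029, edgeR). *Ube2c* (chr2:164769898-164778822) measured 7.29, 5.38 and 18.3 CPM in iASPP KO and 12.5, 12.8 and 33.9 CPM in iASPP WT, the smallest fitted change among the genes that passed (−0.97 ± 0.20, adjusted p = 0.026, edgeR). Without batch 2 the value was −0.83 and not called (adjusted p = 0.15, edgeR). Set against *Ube2c* in the same libraries, the change of *Cdc20* was larger by 1.47 and 0.75 on the log2 scale in batches 1 and 2, and by 0.1 in batch 3; this difference between genes was not tested. For *Cdc20*, 16.1% of 42-base windows occur in other genes, among them *Gm7856*.

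The transcription factors that drive this class of genes did not pass the threshold, and they differed from each other. *Foxm1* (chr6:128362967-128376146) stood at 5.92, 5.65 and 7.55 CPM in iASPP KO and at 5.0, 6.27 and 10.8 CPM in iASPP WT. Its values overlapped between the conditions, being higher in iASPP KO in batch 1 (log2 difference 0.24) and lower in batches 2 and 3 (−0.15 and −0.51). The fitted log2 fold change was −0.15 ± 0.28 (adjusted p = 0.86, edgeR), and without batch 3 it was 0.04 (adjusted p = 0.98, edgeR). Of its 42-base windows, 2.23% occur in other genes, *Tex52* among them. *Mybl2* (chr2:163054687-163084688), encoding B-MYB, stood at 3.02, 3.36 and 6.06 CPM in iASPP KO and at 9.64, 5.0 and 14.5 CPM in iASPP WT. All 3 of its pairs were lower in iASPP KO, by log2 differences of −1.64, −0.56 and −1.24, but the spread between pairs left the fitted value of −1.17 ± 0.30 above the threshold (adjusted p = 0.063, edgeR). It passed with DESeq2 (adjusted p = 0.022), with no filter on low counts (adjusted p = 0.0084, edgeR) and with a robust dispersion (adjusted p = 0.045, edgeR), and over all 10 alternatives its adjusted p ran from 0.0084 to 0.97. The difference between the changes of *Mybl2* and *Foxm1* was −1.88, −0.41 and −0.74 on the log2 scale in the 3 batches, and it was not tested. Of the windows of *Mybl2*, 24.5% occur in other genes, among them *Gm3320*.

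**Figure D3:**
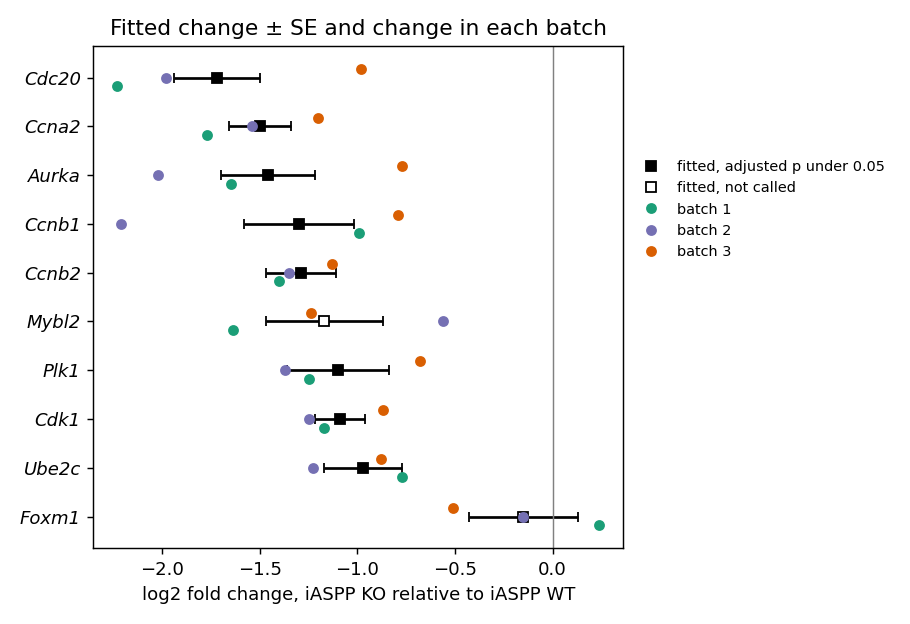
The x axis gives the log2 fold change in iASPP KO against iASPP WT for the 10 genes; black squares and bars are the fitted value ± SE, filled where the adjusted p was below 0.05, and coloured points are the 3 within-batch differences. Batch 3 (orange) is the point nearest 0 in 7 of the 8 genes that passed, and the *Foxm1* points lie on both sides of 0.

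The difference between batches was of the same order as that between conditions. Both cultures of batch 3 held more of these RNAs than the cultures of batches 1 and 2: the iASPP WT culture of batch 3 was the highest iASPP WT value and the iASPP KO culture of batch 3 the highest iASPP KO value for all 10 genes. Summed over the 10 genes, the level was 92.9, 83.9 and 320 CPM in iASPP KO and 261, 234 and 618 CPM in iASPP WT. In a comparison of batch 3 with batches 1 and 2 over both conditions, chosen after these values were seen, 9 of the 10 genes were higher in batch 3, against 9.39% of all tested genes, and *Foxm1* was the exception (0.67 ± 0.29, adjusted p = 0.13, edgeR). The largest of these differences was 2.36 ± 0.26 on the log2 scale for *Plk1* (adjusted p = 2.0e-04, edgeR). In 9 of the 10 genes the batch estimate was larger in size than the condition estimate. Batch 3 is 1 isolation, and the cultures divided from it act as its replicates in this fit. The SE and adjusted p of a batch 3 difference therefore do not measure the spread between isolations. The iASPP KO culture of batch 3 exceeded both iASPP WT cultures of batches 1 and 2 in 8 genes and 1 of them in the other 2, *Cdc20* and *Mybl2*. The within-batch change was nearest 0 in batch 3 for 7 of the 8 genes called, and the median log2 difference of the 10 genes was −1.32 and −1.36 in batches 1 and 2 and −0.88 in batch 3. Whether the condition effect differed between batches was not tested.

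Markers of some cell types differed in batch 3 as well. Of all 14916 tested genes, 1401 were higher and 1747 lower in batch 3. Here too the batch 3 values come from 1 isolation, and their SE and adjusted p do not measure the spread between isolations. Fibroblast markers, summed over the list, stood at 39.3, 53.3 and 468 CPM in iASPP KO and 38.4, 47.8 and 684 CPM in iASPP WT, and 7 of 7 were higher in batch 3, with *Col1a2* the most abundant. Markers of suprabasal, differentiating keratinocytes went the other way, with 6 of 7 lower in batch 3 and sums of 3146, 2478.4 and 973 CPM in iASPP KO and 2867.4, 2420.9 and 909 CPM in iASPP WT. Basal keratinocyte markers summed to between 22827.7 and 27370.6 CPM in all 6 libraries, led by *Krt14*, so the labelled cell type was present throughout. Of these 7 markers, 1 was higher and 1 lower in batch 3. Of 6 tested melanocyte and endothelial markers, 3 were higher and 0 lower in batch 3. The shares of all tested genes called between conditions were 1.95% lower and 2.17% higher in iASPP KO (edgeR). Between conditions, edgeR called 0 of the 7 basal markers (1 at an unadjusted p below 0.05, 0 by DESeq2) and 0 of 6 tested melanocyte and endothelial markers (0 at an unadjusted p below 0.05, 0 by DESeq2), whose sums were 579, 289 and 712 CPM in iASPP KO and 704, 247 and 750 CPM in iASPP WT, with *Pmel* the highest by its mean over the 6 libraries. The suprabasal list had 1 call in each direction (DESeq2, 1 lower and 2 higher), *Krt10* lower (−1.31 ± 0.29, adjusted p = 0.033, edgeR) and *Sbsn*, its most abundant gene, higher (0.67 ± 0.11, adjusted p = 0.0086, edgeR). Fibroblast markers gave 2 lower of 7, *Col1a2* (−0.55 ± 0.13, adjusted p = 0.043, edgeR) and *Col3a1* (−0.87 ± 0.18, adjusted p = 0.027, edgeR). Macrophage and leukocyte markers gave 1 higher of 6 tested, *Csf1r* (1.11 ± 0.21, adjusted p = 0.021, edgeR), with sums of 66.9, 73.1 and 82.0 CPM in iASPP KO and 45.1, 60.3 and 67.1 CPM in iASPP WT. *Cd68*, the highest of this list by its mean over the 6 libraries, was lower in batch 3 (log2 difference −1.92 ± 0.20, adjusted p = 1.4e-04, edgeR), as was *Csf1r* (−2.35 ± 0.25, adjusted p = 1.9e-04), whereas *Lyz2*, named after its values were seen, was higher there (4.47 ± 0.21, adjusted p = 2.2e-06) and made up 59.0 of 82.0 CPM in iASPP KO and 49.5 of 67.1 CPM in iASPP WT. Each of these 5 calls was lost when 1 or another batch was left out, with adjusted p of up to 0.057 for *Sbsn*, 0.11 for *Csf1r*, 0.16 for *Krt10* and *Col3a1* and 0.28 for *Col1a2* (edgeR). The call of *Krt10* was also lost with DESeq2 (adjusted p = 0.14) and with a robust dispersion (adjusted p = 0.16, edgeR). No listed marker was at 0 in every library. The part of these cells in the levels of the mitotic regulators was not tested.

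Compared per kilobase of exon, which allows levels of different genes to be ranked, the mean iASPP WT level fell from *Cdc20* (48.4 ± 25.6 CPM per kb, SD, n = 3) through *Cdk1* (18.5 ± 9.71), *Ccnb2* (17.8 ± 12.4), *Ccna2* (14.9 ± 9.8), *Aurka* (12.9 ± 7.99), *Ube2c* (7.58 ± 4.72), *Plk1* (5.33 ± 4.67), *Ccnb1* (4.75 ± 2.77) and *Mybl2* (2.1 ± 1.03) to *Foxm1* (1.28 ± 0.526). The iASPP WT culture of batch 3 was the highest for each gene, and every pair of neighbours in this order differed by less than the larger of their SDs except *Cdc20* and *Cdk1*. Within libraries, *Cdc20* exceeded *Cdk1*, *Ccnb2* exceeded *Ccna2* and *Ube2c* exceeded *Plk1* in 6 of 6. *Mybl2* exceeded *Foxm1* in only 2 of 6 libraries, and their order was the reverse in the iASPP KO means (0.896 and 1.11 CPM per kb). Exon length here covers all annotated exons of a gene, also those not used in these cells.

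Over the 6 libraries, the members' log2 CPM followed a common profile. Each gene's Pearson correlation with the mean of the other 9 was between 0.93 and 0.99 for 8 genes, 0.89 for *Mybl2* and 0.74 for *Foxm1*; the 6 points share their batches and conditions, and no p is given. Among all other tested genes the 5 with the most similar profiles (Pearson r of 0.997 to 0.999) were *Knstrn* and *Kif11*, which encode spindle proteins, *Orc6*, a subunit of the origin recognition complex, *Fam111a* and *Cdk16*. The members' mean profile is itself lower in iASPP KO in each batch. Genes chosen by their likeness to it are therefore lower there by that choice, and their direction is no separate result. Likeness of profile did not mean likeness of size. *Kif11* (−1.32 ± 0.15, adjusted p = 0.0019, edgeR), *Fam111a* (−1.29 ± 0.17, adjusted p = 0.0032) and *Knstrn* (−1.14 ± 0.17, adjusted p = 0.006) were lower in iASPP KO by amounts in the range of the members. *Orc6* (−0.49 ± 0.17, adjusted p = 0.15, edgeR) and *Cdk16* (−0.26 ± 0.12, adjusted p = 0.32) were not called.

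The change was not shared evenly by the machinery around these 10 genes. Another 83 genes in 7 lists of the same pathway, all tested, were likewise chosen with earlier results known. Of these 83, 29 were lower and 1 higher in iASPP KO, against 1.95% and 2.17% of all tested genes. Their median log2 fold change was −0.51. The median per list ran from −1.10 in the other mitotic kinases to −0.12 in the core subunits of the APC/C. The count of 29 depended on the batches used: it was 12 without batch 1, 17 without batch 2 and 37 without batch 3.

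Kinases of mitosis and of the spindle checkpoint had the list median nearest to that of the 10 regulators. Of 9 other mitotic kinases, 5 were lower and 0 higher (9 lower and 0 higher at an unadjusted p below 0.05; 8 and 0 by DESeq2), with a median log2 fold change of −1.10. *Bub1* (−1.30 ± 0.21, adjusted p = 0.0084, edgeR) and *Bub1b* (−1.27 ± 0.24, adjusted p = 0.02), which hold back anaphase until chromosomes are attached, were lower, as was *Plk4* (−1.05 ± 0.21, adjusted p = 0.021), which controls centriole duplication. The other calls were *Nek2* (−1.10, adjusted p = 0.028, edgeR) and *Ttk* (−1.35, adjusted p = 0.03), named after their values were seen. The calls of *Plk4*, *Nek2* and *Ttk* were lost without batch 1, and that of *Ttk* also without batch 2, with adjusted p of up to 0.092, 0.11 and 0.15 (edgeR).

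Among 16 regulators of CDK1, 4 were lower and 1 higher, with a median log2 fold change of −0.33. *Cdc25c*, encoding a phosphatase that activates CDK1, stood at 4.4, 4.44 and 16.1 CPM in iASPP KO and 13.8, 16.3 and 37.4 CPM in iASPP WT. Its log2 fold change was −1.57 ± 0.21 (adjusted p = 0.004, edgeR). *Mastl*, the Greatwall kinase that restrains the phosphatase opposing CDK1, had a log2 fold change of −1.0 ± 0.16 (adjusted p = 0.0097, edgeR). *Bora*, an activator of Aurora A (−1.24, adjusted p = 0.017, edgeR), and *Ccnf*, encoding cyclin F (−0.74, adjusted p = 0.03), named after their values were seen, were also lower. The 1 gene that rose was *Cdkn1a*, encoding the CDK inhibitor p21, a target of the p53 family, with 128, 151 and 105 CPM in iASPP KO and 78.5, 103 and 66.3 CPM in iASPP WT. Its iASPP KO culture was the higher of each pair, and the log2 fold change was 0.64 ± 0.11 (adjusted p = 0.014, edgeR). *Cdkn1a* was lowest in batch 3 in both conditions, where the mitotic genes were highest. The calls of *Cdkn1a*, *Bora* and *Ccnf* were lost without batch 1 or without batch 2, with adjusted p of up to 0.073, 0.063 and 0.14 (edgeR).

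The APC/C itself showed no call. Of its 14 core subunits, edgeR called 0 in either direction (1 lower and 0 higher at an unadjusted p below 0.05), DESeq2 called 1 lower, and the log2 fold changes lay between −0.39 and 0.21 (median −0.12). The subunits of lowest p were *Anapc5* (−0.39 ± 0.11, adjusted p = 0.096, edgeR), *Anapc1* (−0.18 ± 0.11, adjusted p = 0.46) and *Anapc4* (−0.23 ± 0.14, adjusted p = 0.47). *Fzr1*, encoding CDH1, which takes over from CDC20 late in mitosis and in G1, stood at 12.5, 18 and 23.6 CPM in iASPP KO and 17.4, 16.0 and 27.1 CPM in iASPP WT. Its values overlapped and the log2 fold change was −0.16 ± 0.19 (adjusted p = 0.75, edgeR), whereas that of *Cdc20* was −1.72; the difference between the 2 activators was not tested. Of 7 partners and inhibitors of the APC/C, 2 were lower and 0 higher (3 and 0 at an unadjusted p below 0.05; 2 and 0 by DESeq2), namely *Fbxo5*, encoding the inhibitor EMI1 (−1.38 ± 0.27, adjusted p = 0.021, edgeR), and *Mad2l1*, a checkpoint protein (−1.01 ± 0.20, adjusted p = 0.024). Both calls were lost without batch 2, and that of *Fbxo5* without batch 1, with adjusted p of up to 0.1 and 0.12 (edgeR). *Trip13* (−0.53 ± 0.19, adjusted p = 0.17, edgeR) was not called.

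Genes listed as APC/C substrates, among which *Espl1*, the gene of separase, was counted, were mostly lower. Of the 10 listed genes, 6 were lower and 0 higher (8 and 0 at an unadjusted p below 0.05, 8 and 0 by DESeq2). Their median log2 fold change was −0.97. *Kif22* (−1.57 ± 0.24, adjusted p = 0.0082, edgeR), a chromosome motor, *Gmnn* (−1.15 ± 0.17, adjusted p = 0.0072), which blocks a repeat of replication, and *Hmmr* (−0.99 ± 0.18, adjusted p = 0.015), a spindle protein, were those of lowest p. Only *Hmmr* among these 3 lost its call when a batch was left out (batch 1, adjusted p = 0.074, edgeR). *Pttg1*, encoding securin and named after its values were seen, was not called (−0.38 ± 0.22, adjusted p = 0.45, edgeR).

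The subunits of MuvB and of DREAM, the complex that represses these genes in resting cells, mostly did not pass. Of 11 genes, 2 were lower and 0 higher (2 and 0 at an unadjusted p below 0.05; 2 and 0 by DESeq2), with a median log2 fold change of −0.18. These were *Rbl1*, encoding p107 (−0.67 ± 0.14, adjusted p = 0.026, edgeR), and *Tfdp2*, a partner of E2F (−0.81 ± 0.19, adjusted p = 0.046), and both calls were lost without batch 1 or without batch 2, with adjusted p of up to 0.15 and 0.22. *Lin9*, a MuvB core subunit, had a log2 fold change of −0.31 ± 0.18 (adjusted p = 0.45, edgeR).

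Genes of the earlier G1/S transition were lower too, with a smaller median change. Their log2 fold changes ran from −1.68 to −0.26, and those of the 10 regulators from −1.72 to −0.15. Of 16, 10 were lower and 0 higher (13 and 0 at an unadjusted p below 0.05; 12 and 0 by DESeq2), with a median log2 fold change of −0.64. The 3 of lowest p encode subunits of the MCM helicase, which unwinds DNA for replication: *Mcm6* (−1.19 ± 0.12, adjusted p = 0.0011, edgeR), *Mcm5* (−1.08 ± 0.12, adjusted p = 0.0017) and *Mcm3* (−1.15 ± 0.14, adjusted p = 0.0022). *Mcm6* stood at 39.9, 31.8 and 64.8 CPM in iASPP KO and 92.5, 67.0 and 156 CPM in iASPP WT. Its iASPP KO libraries were all below its iASPP WT libraries. This held for 3 of the 16 G1/S genes, 0 of the 10 mitotic regulators and 5.48% of all tested genes. The difference between the G1/S list and the 10 regulators was not tested.

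**Figure D4:**
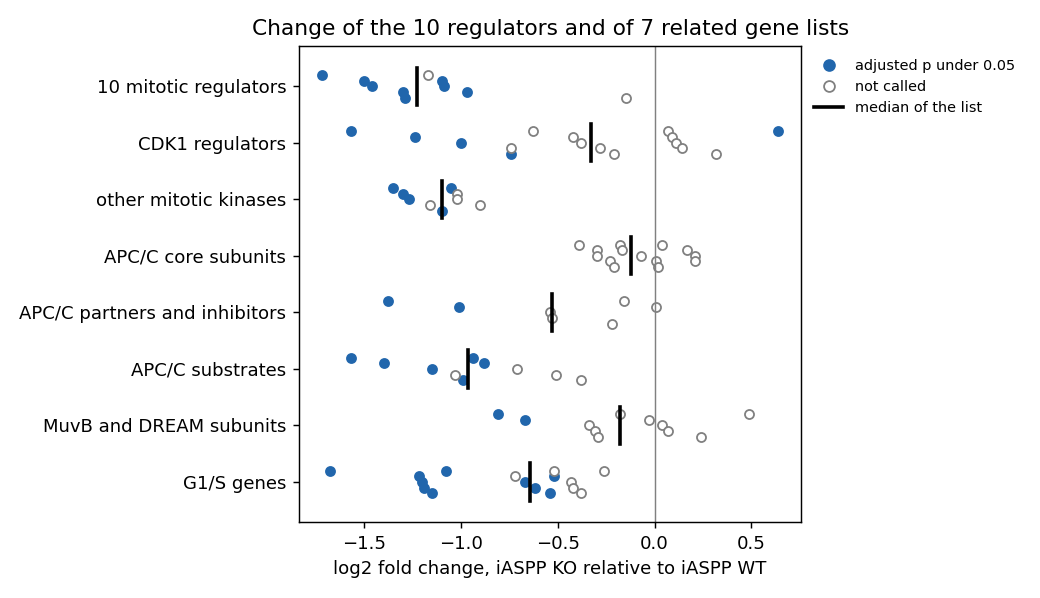
The x axis gives the log2 fold change in iASPP KO against iASPP WT for the 10 regulators and 7 related lists; each point is 1 gene, filled where the adjusted p was below 0.05, and the black line is the list's median. The medians of the regulators (−1.23), the other mitotic kinases (−1.10) and the APC/C substrates (−0.97) lie furthest from 0, the APC/C core subunits (−0.12) lie around 0, and the filled point right of 0 is *Cdkn1a*.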

How the data were processed

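Total RNA of 3 iASPP KO and 3 iASPP WT cultures was depleted of ribosomal RNA and sequenced as single reads of 42 bases. Groups and batches were taken from the labels. The authors trimmed reads with cutadapt 2.10, aligned them to GRCm38 with STAR 2.7.3 and the GENCODE vM25 annotation, and deposited raw counts per gene name from featureCounts 2.0.0, which were not normalized. A deposited table of the authors' own DESeq2 comparison (fold changes and p-values) was not used.

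The test was the quasi-likelihood F test of edgeR 4.0.16 (R 4.3.3) on the raw counts with TMM scaling of library sizes, after filterByExpr with the conditions as groups, in a model of batch plus condition, with Benjamini-Hochberg adjustment over all 14916 tested genes with a threshold of 0.05. Residual degrees of freedom were 2, prior degrees of freedom 8.17 and the common dispersion 0.0627. The SE is the size of the log2 fold change over the square root of F. Log2 differences within a batch use CPM with a prior count of 2. The steps were tested on simulated data. Same-condition libraries differed far beyond sampling noise (chi-square per gene of 25.4 to 104). Batch is the replicate number of the labels, and the labels state that each batch was divided between the conditions; deviations from the group means correlated at 0.302, 0.368 and 0.568 within batches and at −0.427 to 0.179 between batches.

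The 10 members and all gene lists were chosen with earlier results of these data known. Beyond them, the genes named are *Ppp1r13l*, the 3 genes of lowest unadjusted p in each related list with *Cdkn1a* and *Fzr1*, the 5 genes most correlated with the members' mean profile, and the most abundant gene of each marker list. Names given for the other calls of a list with 5 or fewer calls were chosen after their values were seen, as were *Lyz2*, *Espl1* and *Pttg1*. Gene positions are those of the count table. Shared 42-base windows were counted on GENCODE vM21 transcripts. Alternatives were no batch term, DESeq2 1.42.0, its size factors or upper-quartile scaling in edgeR, other count filters, robust dispersion, a minimum absolute log2 fold change of 1, and each batch left out. Figures were drawn with matplotlib 3.10.9.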

Additional observations from a re-analysis of the deposited data

How the results depend on the processing

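With no replicate block, the paired structure being left out of the model, edgeR called 0 of the 10 regulators lower, 0 of the 83 related genes lower and 0 higher, and 0 of all genes, with adjusted p of 0.97 to 0.98 for the 8 regulators called with the block. Leaving out each batch in turn gave 5 to 8 regulators lower, 12 to 37 related genes lower and 0 to 1 higher. The lowest number of regulators, 5, came without batch 2. With a minimum absolute log2 fold change of 1, the related genes gave 19 lower and 0 higher, and the regulators 7 lower. DESeq2, other scalings, other count filters and robust dispersion gave 8 to 9 regulators and 30 to 38 related genes lower, and 0 regulators higher. Of the genes named, the log2 fold change turned sign for *Foxm1* without batch 3 (0.04, range −0.33 to 0.04 over the batches left out) and for *Krt14* without batch 1 (0.05, range −0.07 to 0.05), neither of them called. Calls over all genes were 291 lower and 323 higher, against 439 and 538 with DESeq2, 491 and 624 without a filter, 662 and 793 without batch 3, 151 and 169 without batch 1 and 117 and 174 without batch 2. The higher level in batch 3 held for 9 regulators under other scalings, filters and robust dispersion, which were added after the data were seen. With 3 pairs, an exact test that flips the sign of each pair cannot go below p = 0.25, so the calls rest on the variance that edgeR shares across genes.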
